A study of Mus musculus with 30 samples.

Results

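The genes of this report were the nuclear genes for subunits of the oxidative phosphorylation machinery, chosen by symbol: names that begin Nduf with a, b, c, s or v and a digit, Sdha to Sdhd, names that begin Uqcr, Cox4 to Cox8, or Atp5. The rule found 84 genes among 24883 rows of the deposited FPKM table (fragments per kilobase, scaled to the mapped fragments of each library), each on 1 row. By the complex that the encoded protein belongs to they fell into 35 genes of complex I, 4 of complex II, 8 of complex III, 19 of complex IV (Ndufa4 and Ndufa4l2, named after complex I, were counted here) and 15 of complex V. The rule also took 3 genes that are not subunits (Cox7a2l, Atp5s and Atp5sl), which were kept apart from the complexes.

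Bulk RNA-seq had been run on dorsal hippocampus from 30 male wild-type C57BL/6J mice, 2 to 4 months old, 6 in each of 5 conditions. The question was how CREST (Ss18l1, a subunit of the neuronal BAF chromatin remodelling complex) acts through its tyrosine 397 on gene expression after object location memory (OLM) training. VEH mice received the in vivo-jetPEI transfection reagent without DNA. The other mice received in it a plasmid for HA-tagged mouse Crest under a miniCaMK2 promoter, either Y397F or Y397D. The labels call these phospho-null and phospho-mimetic. The authors could not detect phosphorylation of Y397 and name them point mutants only. VEH-HC mice were only handled and stayed in the home cage, while the OLM protocol also habituated mice to the chamber before training. VEH-T10 and Y397F-T10 mice were trained for 10 min, VEH-T3 and Y397D-T3 mice were trained for 3 min, and tissue was taken 1 h after training. Habituation and training thus cannot be told apart in comparisons with VEH-HC. No empty plasmid and no plasmid for wild-type CREST was used. The effects of the plasmid, of added CREST and of the mutation therefore cannot be told apart. Plasmid-expressing cells were not separated from the rest of the tissue.

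Oxidative phosphorylation takes place in the inner mitochondrial membrane. Complexes I and II pass electrons from NADH and succinate to ubiquinone, complex III hands them to cytochrome c, complex IV gives them to oxygen, and complex V (ATP synthase) uses the proton gradient built by complexes I, III and IV to make ATP. Neurons depend on this pathway to restore ion gradients after synaptic activity. Some subunits of complexes I, III, IV and V are encoded by mitochondrial DNA, whose genes were not analysed here.

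Single libraries differed in depth and in marker levels. Relative depth, read from the spacing of the low FPKM values, ran from 0.814 to 1.25 times the median library; absolute depth was not given in the sources used here. The median of Ss18l1 was highest in Y397D-T3 (13.7 FPKM), next in VEH-T3 (12.9), and 12.5 in VEH-HC and Y397F-T10 and 12.4 in VEH-T10, with overlap between the groups. The CA1 pyramidal markers Fibcd1, Wfs1, Mpped1 and Spink8 were all measured, with summed levels of 135 to 211 FPKM over the 30 mice, and 1 of the 4, Spink8, passed as higher in VEH-T3 against VEH-HC (0.49, limma adjusted p = 0.047). The summed level of 6 choroid plexus markers (Ttr, Kl, Folr1, Clic6, Kcne2 and Otx2) ran from 918 to 5590 FPKM in VEH-HC. The ranges were 29.6 to 12789 for VEH-T3 mice, 13.5 to 2839 for Y397D-T3 mice, 10.3 to 4464 for VEH-T10 mice and 28.9 to 10396 for Y397F-T10 mice, and 0 of the 6 passed the test in any of the 7 comparisons. The medians of this sum still differed by condition. They were 3146 FPKM in VEH-HC, 1954 in VEH-T3, 124 in Y397D-T3, 102 in VEH-T10 and 55.8 in Y397F-T10. Of 5 thalamus markers, Slc17a6 was lower than in VEH-HC in VEH-T10 (-1.08), Y397F-T10 (-1.12) and Y397D-T3 (-0.95) on the log2 scale and Tcf7l2 in Y397D-T3 (-0.37), and the summed level of the 5 ran from 22.8 to 43.2 FPKM in VEH-HC and from 9.12 to 59.8 in the other conditions. Of the astrocyte, oligodendrocyte and microglia markers none passed against VEH-HC. Of 5 endothelium markers, 1 passed as higher in VEH-T3 and 1 as lower in Y397D-T3 against VEH-HC. The part of these cell types in the results below was not tested, beyond 1 fit with the choroid plexus level. In bulk tissue, fewer cells of a type and less RNA per cell cannot be told apart.

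The 84 genes were 0.338% of the rows but carried a median of 4.56% of the summed FPKM of a library, with a range of 4.11 to 5.31%. Per length, complex IV was the highest, with a median summed level of 5711 FPKM over the 30 mice, followed by complex I at 5061, complex V at 5039, complex III at 1934 and complex II at 389. The highest single genes by mean FPKM were Cox6a1 (1059) and Cox8a (1036), both small subunits of cytochrome c oxidase, then Cox4i1 (727), a regulatory subunit of the same enzyme. In complex V the highest was Atp5b (621), the catalytic β subunit, and the lowest Atp5f1 (140), part of the peripheral stalk. In complex I the ends were Ndufa3 (502) and Ndufa11 (23.5), both accessory subunits, in complex II Sdha (132), the flavoprotein, and Sdhd (65.1), a membrane anchor, and in complex III Uqcr11 (430), a small subunit, and Uqcrc2 (96.3), a core protein.

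**Figure D1:**
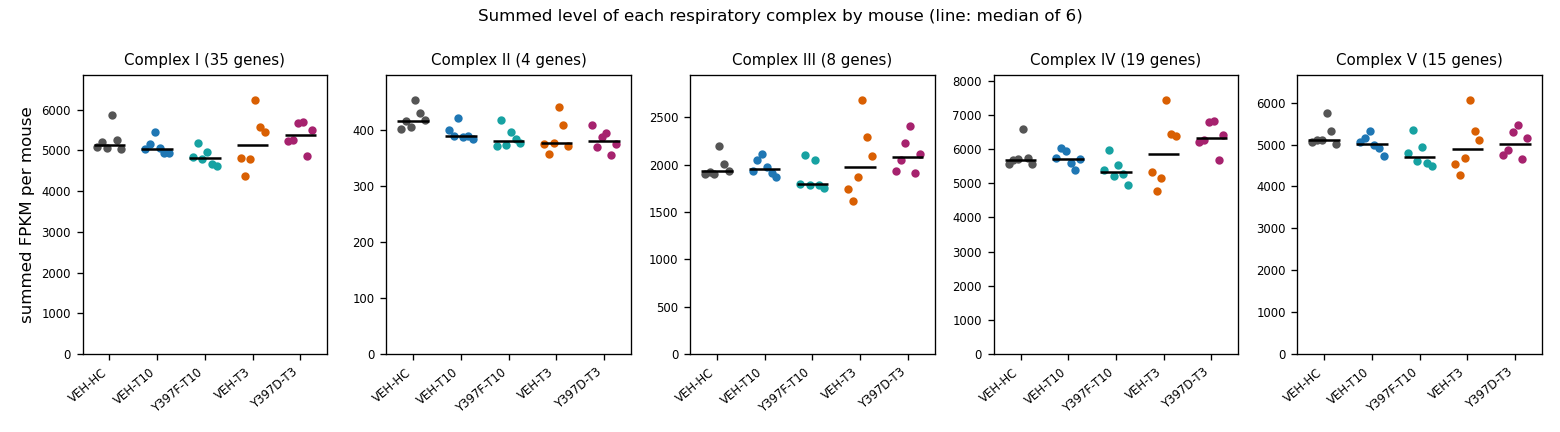
Summed FPKM of the genes of each complex, with 1 point per mouse and a line at the median of 6 mice in each of the 5 conditions; the y axes start at 0 and differ between panels. VEH-T3 had the widest spread, from 4774 to 7431 in complex IV, and VEH-HC mouse 4 (6595) lay above the other 5 VEH-HC mice there.

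Summed by complex, the conditions overlapped. For complex I the 6 mice ran from 5040 through a median of 5136 to 5854 FPKM in VEH-HC, from 4932 through 5035 to 5449 after 10 min of training with vehicle and from 4615 through 4805 to 5171 in Y397F-T10. They ran from 4359 through 5126 to 6229 in VEH-T3 and from 4855 through 5378 to 5699 in Y397D-T3. Complex IV had the highest median in Y397D-T3, 6336 (5671 to 6828), against 5854 (4774 to 7431) in VEH-T3, 5716 (5394 to 6026) in VEH-T10, 5692 (5563 to 6595) in VEH-HC and 5340 (4934 to 5970) in Y397F-T10. Complex II was highest in VEH-HC, with a median of 417 (401 to 453) against 389 in VEH-T10, 381 in Y397D-T3, 380 in Y397F-T10 and 376 in VEH-T3. The SD of the total over all 84 genes was 2741 FPKM in VEH-T3 and between 676 and 1252 in the other 4 conditions.

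Each gene was tested with limma on log2(FPKM + 1) in 1 fit of all 30 libraries over the 13184 rows with a mean of at least 1 FPKM, with Benjamini-Hochberg adjustment over all of them in each of 7 comparisons and a threshold of 0.05. Of the 84 genes 82 were tested: Cox8c, a testis form, was listed at 0 in all mice and Cox7b2 averaged 0.782 FPKM. All fold changes below are on this scale. Against VEH-HC, 4 genes passed in VEH-T3 and 5 in Y397D-T3, with Ndufa5 and Atp5d in both, and no gene passed in VEH-T10 or Y397F-T10. These 4 comparisons share the VEH-HC mice.

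**Figure D2:**
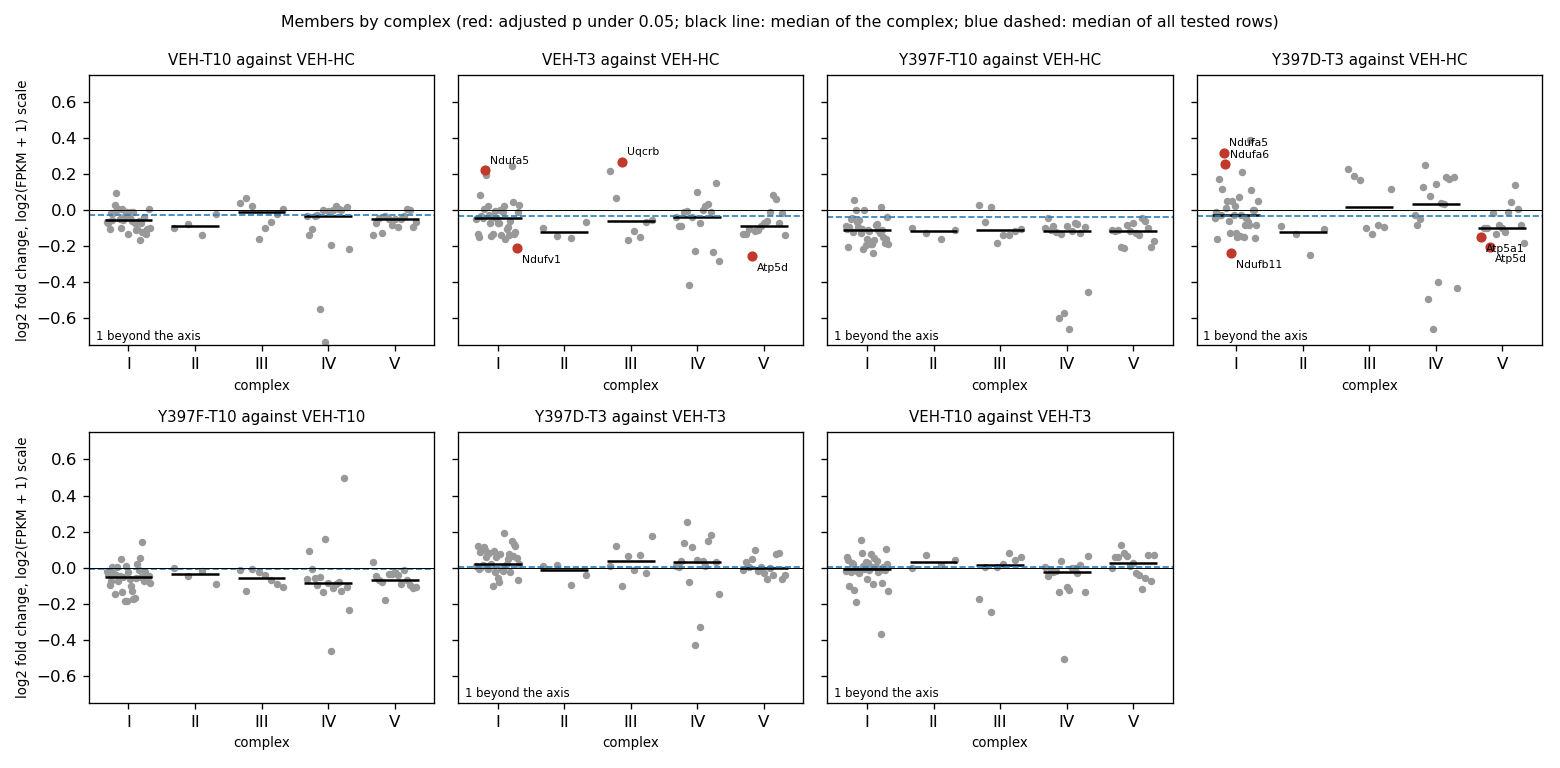
Log2 fold change of each tested subunit gene in the 7 comparisons, grouped by complex, with genes past the adjusted threshold in red, the median of each complex as a black line and the median of all 13184 tested rows as a blue dashed line. Ndufa5, Ndufa6 and Uqcrb lie above 0, and Ndufv1, Ndufb11, Atp5a1 and Atp5d lie below; points beyond the axis are counted in the panel and are Cox8b.

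The clearest change was in Ndufa5, an accessory subunit of the arm of complex I that reaches into the matrix (chr6:24518666-24528013, minus strand, mm10). Its 6 VEH-HC mice ran from 152 through a median of 166 to 180 FPKM, and its Y397D-T3 mice from 178 through 211 to 228. Only the lowest Y397D-T3 mouse fell inside the VEH-HC range. The difference was 0.32 ± 0.06 (log2, SE, limma adjusted p = 0.0041), with 6 of 6 Y397D-T3 mice above the VEH-HC median. In VEH-T3 the values were 167, 193 and 220 FPKM, a difference of 0.22 ± 0.06 (adjusted p = 0.042), again with 6 of 6 mice above. VEH-T10 (167, 177 and 187 FPKM) and Y397F-T10 (153, 173 and 188 FPKM) gave 0.09 ± 0.06 (adjusted p = 0.52) and 0.05 ± 0.06 (adjusted p = 0.72). The VEH-T3 call was lost without any 1 of the 6 VEH-HC mice or without VEH-T3 mouse 3, 4, 5 or 6, where its fold change ran down to 0.18 and its adjusted p up to 0.10.

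Ndufa6 (chr15:82350140-82354322, minus strand), another accessory subunit of complex I, had lowest, median and highest values of 139, 144 and 156 FPKM in VEH-HC, 136, 146 and 156 in Y397F-T10 and 137, 146 and 155 in VEH-T10. These 3 groups lay almost on top of each other. In VEH-T3 the values were 142, 166 and 202 FPKM and in Y397D-T3 they were 146, 179 and 187. The rise in Y397D-T3 was 0.25 ± 0.06 (adjusted p = 0.016), and each of the 6 mice exceeded the median of VEH-HC. In VEH-T3 the difference was 0.19 ± 0.06 (adjusted p = 0.071). Ndufa5 and Ndufa6 in Y397D-T3 passed under all 9 other settings and with each of the 30 libraries left out in turn, where the adjusted p reached at most 0.041.

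In complex III, Uqcrb (chr13:66900617-66905378, minus strand), a small subunit near the ubiquinone site, ran from 140 through 155 to 169 FPKM in VEH-HC and from 152 through 187 to 225 in VEH-T3. It rose by 0.27 ± 0.07 in VEH-T3 (adjusted p = 0.036). In Y397D-T3 it ran from 159 through 171 to 197, a difference of 0.17 with adjusted p = 0.16. The VEH-T3 call rested on single mice: it was lost without VEH-HC mouse 2, 3, 4 or 5 or VEH-T3 mouse 3, 4 or 6, with adjusted p up to 0.080. GENCODE holds near-identical copies of Uqcrb in Gm16089, Gm2962 and Gm5457, so its fragments may be shared.

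Other genes fell. Atp5d (chr10:80138632-80145818, plus strand), the δ subunit in the central stalk of ATP synthase, ran from 256 through 274 to 309 FPKM in VEH-HC, from 196 through 233 to 260 in VEH-T3 and from 214 through 241 to 254 in Y397D-T3. It fell by 0.25 in VEH-T3 (SE 0.06, adjusted p = 0.020) and by 0.21 in Y397D-T3 (SE 0.06, adjusted p = 0.040), and the Y397D-T3 and VEH-HC mice did not overlap. Ndufv1, which binds NADH and FMN at the entry of complex I, ran from 101 through 103 to 112 FPKM in VEH-HC and from 85.0 through 88.5 to 96.5 in VEH-T3, a fall without overlap (-0.21 ± 0.05, adjusted p = 0.021). In Y397D-T3 Ndufv1 was at 82.6, 96.0 and 100 FPKM, a difference of -0.16 (adjusted p = 0.061). Both VEH-T3 calls were lost without VEH-HC mouse 4 or VEH-T3 mouse 2 or 3, with adjusted p up to 0.071 for Atp5d and 0.064 for Ndufv1. The Y397D-T3 call of Atp5d was lost without VEH-HC mouse 2, 3, 4 or 5 or any of Y397D-T3 mice 2 to 6, with adjusted p up to 0.11.

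Atp5a1, the α subunit of the catalytic head, fell in Y397D-T3 by 0.15 (SE 0.04, adjusted p = 0.027), from 362, 369 and 377 FPKM in VEH-HC to 311, 338 and 350. The VEH-HC mice lay above every VEH-T10 (310 to 358) and Y397F-T10 (320 to 359) mouse too, with differences of -0.14 (adjusted p = 0.094) and -0.11 (adjusted p = 0.17). Ndufb11, an accessory subunit of the membrane arm, fell in Y397D-T3 by 0.24 (SE 0.07, adjusted p = 0.035), from 115, 120 and 130 FPKM to 91.9, 105 and 111 without overlap. A near-identical copy, Gm6444, is annotated. The call of Atp5a1 was lost without VEH-HC mouse 2, 4 or 5 or Y397D-T3 mouse 2 or 5 (adjusted p up to 0.078), and that of Ndufb11 without VEH-HC mouse 1, 3, 4 or 5 or Y397D-T3 mouse 1, 2 or 5 (adjusted p up to 0.095). When each library was centred on its median, the falls of Ndufv1 in VEH-T3 and of Atp5a1, Atp5d and Ndufb11 in Y397D-T3 no longer passed, and with the trend on transcript length and GC content removed no gene passed as lower.

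**Figure D3:**
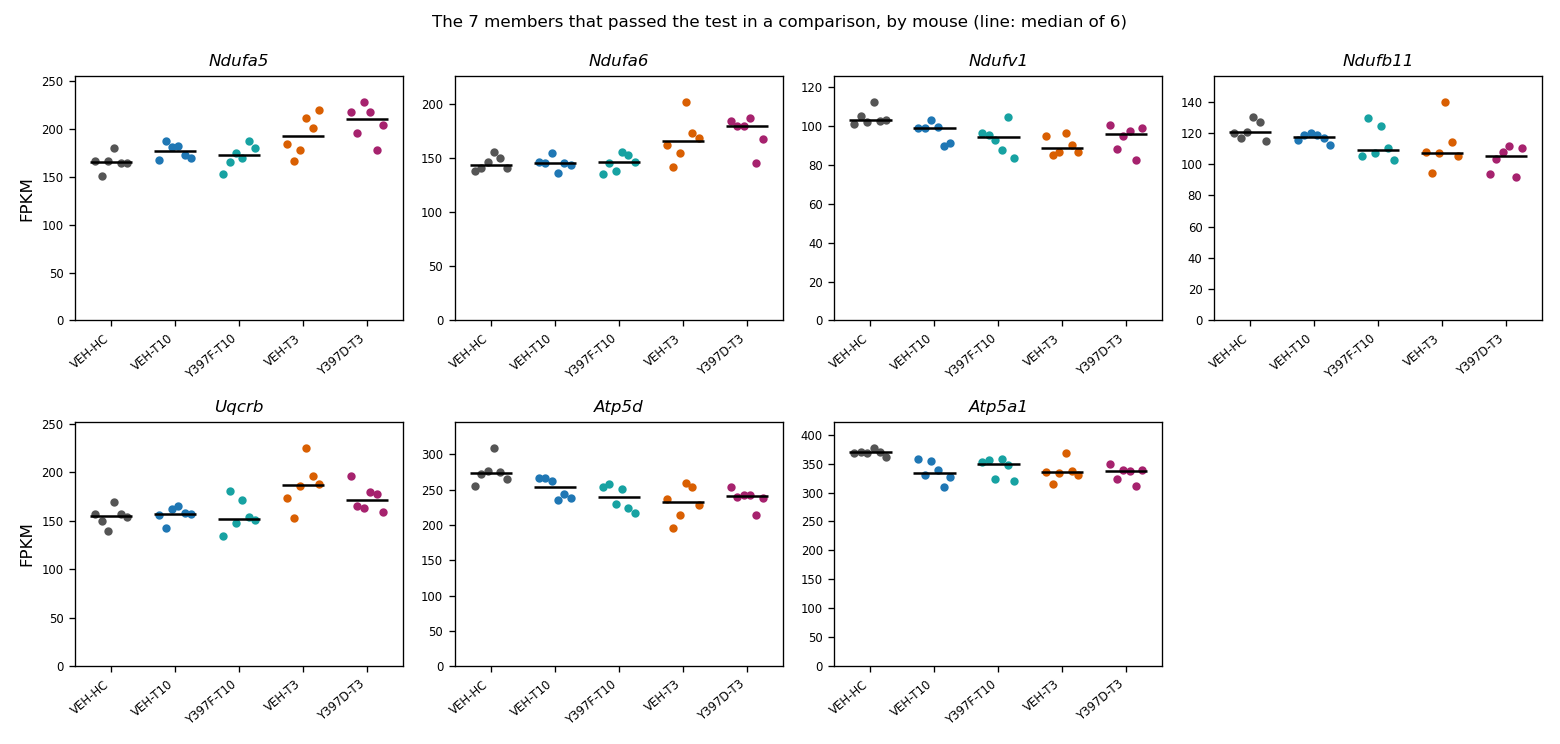
FPKM by mouse of the 7 genes that passed the test in a comparison, with 1 point per mouse, a line at the median of 6 and axes from 0. Ndufa5 and Ndufa6 are highest in Y397D-T3 with VEH-T3 next, and Atp5d, Atp5a1 and Ndufv1 are highest in VEH-HC.

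The promoters of the pathway are known for binding sites of NRF1, of ETS factors such as GABP, and of YY1. RefSeq promoter windows (GRCm38.p6, 250 bases before to 50 after the start) were matched by symbol for 66 of the 84 genes, and 3 motifs were searched on both strands. CGCATGCG (NRF1) was in a window of 9 of 66 genes (13.6%), against 2.07% of 27025 genes with a window. CCGGAAG (ETS) was in 16 of 66 (24.2%) against 9.93%, and AAGATGGCG (YY1) in 7 of 66 (10.6%) against 1.64%, so that 26 of 66 (39.4%) held at least 1 of them against 12.8% of all. The 27025 genes were not limited to expressed ones, while 82 of the 84 genes of this report averaged at least 1 FPKM. The part of this difference in the shares was not tested. A match is a description of the letters, not of a bound site. Only exact matches were counted, so a window without a match may hold a site with other letters. Of the genes that passed the test, Ndufa5, Ndufa6, Atp5d, Ndufv1 and Ndufb11 had windows, and none of these held any of the 3 motifs. Whether these few genes differ from the 66 in this was not tested. The stretches upstream of the start and outside annotated exons are shown in lower case, with matches in capitals, for Ndufa6 (higher in Y397D-T3, no match), Ndufv1 (lower in VEH-T3, no match) and, for contrast, Cox6a1 (an NRF1 match; its ETS match lies outside the stretch shown) and Atp5l (an NRF1 match followed by an ETS match), each 5′ to 3′ on the strand of the gene. They are the minus strand of chr15:82354323-82354541 for Ndufa6, chr19:4012807-4013005 for Ndufv1, chr5:115348982-115349129 for Cox6a1 and chr9:44920752-44920992 for Atp5l.
Ndufa6: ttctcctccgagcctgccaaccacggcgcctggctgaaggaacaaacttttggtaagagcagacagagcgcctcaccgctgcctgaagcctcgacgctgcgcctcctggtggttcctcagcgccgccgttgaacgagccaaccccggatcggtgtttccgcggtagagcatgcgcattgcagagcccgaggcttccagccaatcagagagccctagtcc
Ndufv1: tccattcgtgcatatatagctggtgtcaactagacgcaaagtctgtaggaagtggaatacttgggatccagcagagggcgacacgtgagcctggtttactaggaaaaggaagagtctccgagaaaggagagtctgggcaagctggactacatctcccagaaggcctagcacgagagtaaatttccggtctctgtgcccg
Cox6a1: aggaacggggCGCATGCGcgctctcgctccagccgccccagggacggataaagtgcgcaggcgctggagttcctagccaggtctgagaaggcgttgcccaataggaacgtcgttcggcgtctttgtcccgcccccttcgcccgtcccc
Atp5l: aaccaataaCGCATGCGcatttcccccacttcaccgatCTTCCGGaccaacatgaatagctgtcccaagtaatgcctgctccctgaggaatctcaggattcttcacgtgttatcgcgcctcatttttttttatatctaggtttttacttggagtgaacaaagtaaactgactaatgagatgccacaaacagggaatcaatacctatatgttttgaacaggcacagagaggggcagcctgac

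Set against all rows, these counts were small. In VEH-T3 against VEH-HC, 2 of 82 genes (2.44%) passed as higher and 2 as lower, where 2.23% and 2.94% of all tested rows did. In Y397D-T3 against VEH-HC, 2 of 82 passed as higher and 3 (3.66%) as lower, against 3.91% and 3.16% of all rows. At an unadjusted p under 0.05, VEH-T3 had 3 higher and 17 lower genes (all rows 7.79% and 13.8%) and Y397D-T3 had 9 and 14 (all rows 10.3% and 14.6%). The shares were thus near the background in both comparisons at the adjusted threshold. Within Y397D-T3 the complexes leaned differently: the median was 0.03 in complex IV and 0.02 in complex III, but -0.03 in complex I, -0.10 in complex V and -0.12 in complex II, with -0.03 over all tested rows.

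The abundant small subunits of complex IV stood highest in Y397D-T3 without passing the test in the fit of all 30 libraries. Cox6a1 ran from 987 through 1005 to 1199 FPKM in VEH-HC and from 1078 through 1258 to 1313 in Y397D-T3 (0.25 ± 0.09, adjusted p = 0.081). It did pass as higher with libraries centred, with only the 12 libraries compared and with the length and GC trend removed. Without VEH-HC mouse 4 and VEH-T3 mouse 4 it passed too. Cox8a gave 0.17 (adjusted p = 0.27), Cox7c 0.18 (adjusted p = 0.12) and Cox5b, the zinc-binding subunit, 0.13 (adjusted p = 0.29). Cox4i1, at -0.03 (adjusted p = 0.86), and Cox5a, at -0.05 (adjusted p = 0.57), did not share that direction. In complex I, Ndufs5, a small accessory subunit, had the highest fold change in Y397D-T3, 0.39 ± 0.14 (adjusted p = 0.094), with 111, 192 and 244 FPKM in VEH-HC and 190, 242 and 278 in Y397D-T3. Its VEH-HC mice were widely spread, and it passed with the length and GC trend removed. Near-identical copies are annotated for Cox7c, and for Atp5o of complex V.

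In the electron-carrying core of complex I, Ndufv1 alone of the genes named here passed. Against VEH-HC, Ndufs1, an iron-sulfur protein of the electron path, differed by -0.10 in VEH-T10 and VEH-T3 and by -0.08 in both plasmid conditions, with adjusted p from 0.25 to 0.44. Ndufv2, the partner of Ndufv1, gave values between -0.08 and 0.01. Ndufs7 and Ndufs8, iron-sulfur proteins near the membrane, were at -0.15 and -0.18 in Y397F-T10 (adjusted p = 0.21 and 0.23) and within 0.01 of 0 in Y397D-T3.

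All 4 genes of complex II, succinate dehydrogenase, had negative differences in each of the 4 comparisons with VEH-HC, and 0 of 4 passed. Of all rows, 59.7% were negative in VEH-T10, 61.0% in VEH-T3, 63.7% in Y397F-T10 and 59.6% in Y397D-T3. Sdha, the flavoprotein that oxidizes succinate, ran from 137 through 139 to 143 FPKM in VEH-HC, against a median of 130 in Y397D-T3 and of 129 in each of the other 3 trained conditions. Sdhc, an anchor in the membrane, gave the largest difference, -0.25 ± 0.09 in Y397D-T3 (adjusted p = 0.078), and passed with only the 12 libraries compared and with the replicate block. Sdhb, the iron-sulfur protein, ranged from -0.08 to -0.14 and Sdhd from -0.02 to -0.11. With libraries centred, with the choroid plexus level as covariate, or without VEH-HC mouse 4 and VEH-T3 mouse 4, 3 of 4 stayed negative in VEH-T10, and with the length and GC trend removed 3 of 4 did in VEH-T10 and in VEH-T3; all 4 stayed negative in the other comparisons.

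In Y397F-T10 against VEH-HC, 77 of 82 genes had a negative difference, with a median of -0.11 beside -0.04 and 63.7% negative over all tested rows. No gene passed the adjusted threshold, which 0.47% of all rows passed as higher and 0.66% as lower. At an unadjusted p under 0.05, limma gave 0 genes higher and 22 lower (26.8% of 82), against 5.5% and 11.4% of all rows. Among the 22 were Uqcrc1, a core protein of complex III, at 136, 153 and 159 FPKM against 163, 168 and 184 in VEH-HC (-0.19, adjusted p = 0.10), and Atp5o, a stalk subunit, at 208, 233 and 244 against 247, 258 and 293 (-0.17, adjusted p = 0.15). Neither pair of groups overlapped. The highest were Ndufa5 (0.05) and Uqcr10, a small subunit of complex III, whose 0.03 became -0.03 without Y397F-T10 mouse 4. With the length and GC trend removed, 52 of 82 were negative with a median of -0.02, and 47.9% of all rows were. With libraries centred 75 were negative (all rows 54.9%), and with the choroid plexus level as covariate 70 were (all rows 55.8%). Without VEH-HC mouse 4 and VEH-T3 mouse 4 there were 75 (all rows 63.9%). Cytosolic ribosomal protein genes had a median of -0.10 in the same comparison, and against VEH-HC of -0.03 in Y397D-T3, -0.01 in VEH-T3 and 0.02 in VEH-T10.

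In VEH-T10 against VEH-HC, 67 of 82 genes had a negative difference, with a median of -0.05 beside -0.03 over all rows. No gene passed (all rows 0.319% higher and 0.501% lower), and at an unadjusted p under 0.05 there were 0 higher and 10 lower, against 4.57% and 10.3% of all rows. The 10 included Atp5a1, Atp5d, Ndufv1, Ndufs7, Sdha and Uqcrc1. With libraries centred 49 of 82 were negative, and without VEH-HC mouse 4 and VEH-T3 mouse 4 there were 50. In VEH-HC mouse 4, 79 of the 82 genes lay above the condition mean, so leaving it out raised most of these differences.

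The direct comparisons of training with and without plasmid gave no call. In Y397F-T10 against VEH-T10, 69 of 82 genes were negative with a median of -0.06, beside -0.01 and 53.9% over all rows, and 0 genes passed in either direction (all rows 0% and 0%). At an unadjusted p under 0.05 there were 0 higher and 2 lower (all rows 1.94% and 1.84%), Ndufb4 and Ndufb9, both accessory subunits of complex I, named here after their values were seen. With the length and GC trend removed, 43 of 82 were negative (all rows 50.8%). With libraries centred 71 were (all rows 56.4%), and with the choroid plexus level as covariate 72 were (all rows 55.3%). In Y397D-T3 against VEH-T3, 52 of 82 were positive with a median of 0.01, and 0 passed (all rows 0% higher and 0.00758% lower). Without VEH-HC mouse 4 and VEH-T3 mouse 4, a choice made after the data were seen, 70 of 82 were positive with a median of 0.07. Of all rows, 47.9% were negative in that fit. In VEH-T3 mouse 4 all 82 genes lay above the condition mean, so leaving it out could only raise these differences. With the choroid plexus level as covariate 65 of 82 were positive, and 43.3% of all rows were negative. At an unadjusted p under 0.05, 3 were higher (Cox6a1, Ndufa10 and Ndufs7) and 0 lower, against 5.15% and 2.72% of all rows.

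Ndufa5 and Ndufa6 did not separate the 2 groups trained for 3 min. Y397D-T3 less VEH-T3 was 0.10 for Ndufa5 (95% interval -0.03 to 0.23, adjusted p = 0.72) and 0.06 for Ndufa6 (-0.07 to 0.19, adjusted p = 0.83). The highest value was that of Cox6a1, 0.26 ± 0.09 (0.08 to 0.44, adjusted p = 0.52), with 6 of 6 Y397D-T3 mice above the VEH-T3 median. In VEH-T10 against VEH-T3, 41 genes were positive and 41 negative, and 0 passed (all rows 0% and 0.0455%). Without the same 2 mice 62 were positive, beside 46.1% negative over all rows. Here too, leaving out VEH-T3 mouse 4 could only raise the differences. At an unadjusted p under 0.05, 2 were higher (Atp5d and Ndufb10) and 3 lower (Ndufa6, Ndufs5 and Uqcrb), against 3.65% and 4.51% of all rows. Ndufa6 was at -0.19 (-0.32 to -0.06, adjusted p = 0.44) and Uqcrb at -0.25 (-0.40 to -0.10, adjusted p = 0.41).

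Several subunits come in isoforms, of which 1 dominated throughout. Cox4i1 held a median of 99.7% of the Cox4 FPKM, Cox6a1 99.5% of Cox6a, Cox6b1 98.8% of Cox6b, Cox7a2 94.0% of Cox7a, Cox7b 99.1% of Cox7b, Cox8a 99.7% of Cox8 and Ndufa4 99.4% beside Ndufa4l2. Cox6a2 and Cox7a1 are the heart and muscle forms, and Cox4i2 is known from lung. Over the 30 mice Cox4i2 ran from 0.998 to 3.45 FPKM, Cox6a2 from 2.49 to 9.01 and Ndufa4l2 from 1.97 to 5.61. The 3 genes for the identical mature c-ring subunit of ATP synthase were all well expressed, Atp5g3 with 48.4% of their sum, Atp5g1 with 25.8% and Atp5g2 with 25.8%. Cox7a2l, a factor for the assembly of supercomplexes, ran from 112 to 172 FPKM. Cox7b2 ran from 0 to 1.75 FPKM, and exact two-sided permutation tests over the 6 mice of each group gave adjusted p from 0.69 to 0.93 over its 7 comparisons.

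**Figure D4:**
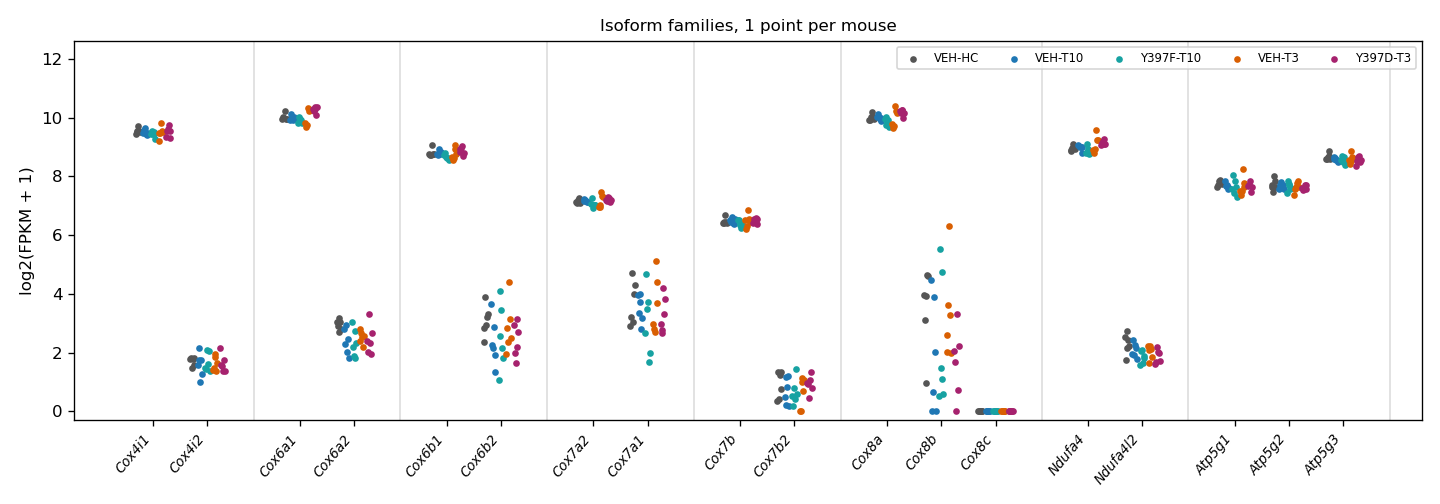
Levels of the isoform families as log2(FPKM + 1), with 1 point per mouse coloured by condition. The main isoform of each COX family lies well above the others, the 3 Atp5g genes lie close together, and Cox8b spreads from 0 to 78.2 FPKM.

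The widest spread of any tested subunit gene was in minor COX isoforms. Cox8b, the muscle form (chr7:140898945-140900446, minus strand), ran from 0.938 through a median of 14.4 to 24.2 FPKM in VEH-HC. It ran from 2.96 through 6.90 to 78.2 in VEH-T3, from 0 through 2.71 to 8.97 in Y397D-T3, from 0 through 1.84 to 21.0 in VEH-T10 and from 0.458 through 1.48 to 45.5 in Y397F-T10. The groups overlapped. Cox8b gave the lowest fold change in 5 of the 7 comparisons, for example -1.87 ± 0.94 in Y397D-T3 against VEH-HC (adjusted p = 0.22), and passed in none. Cox6b2, a testis form, ran from 1.11 to 20.2 FPKM and Cox7a1 from 2.23 to 34.0.

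In the 2 mice with the most Ttr (transthyretin, made by the choroid plexus), these isoforms were high. VEH-T3 mouse 4, with 12451 FPKM of Ttr, had 78.2 of Cox8b, 20.2 of Cox6b2 and 34.0 of Cox7a1, and Y397F-T10 mouse 2, with 10072 of Ttr, had 45.5, 16.3 and 24.5. At the other end VEH-T10 mouse 2, with 5.89 of Ttr, had 0 of Cox8b, 3.81 of Cox6b2 and 9.12 of Cox7a1. VEH-HC mouse 4 had 890 FPKM of Ttr and 0.938 of Cox8b. Cox7a1 did not follow Ttr in all mice: VEH-T3 mouse 3, with 2110 FPKM of Ttr, had 5.46 of Cox7a1, less than VEH-T10 mouse 2. With the mean log2 level of the 6 choroid plexus markers as a covariate, a fit added after the data were seen, the difference of Cox8b in Y397D-T3 against VEH-HC went from -1.87 to 0.22 and that of Cox6b2 from -0.66 to 0.25. Ndufa5 and Ndufa6 still passed in that fit, joined by Uqcrb, while Atp5a1, Atp5d and Ndufb11 did not. The covariate itself differed by condition, with medians of 5.45 in VEH-HC and 2.25 in Y397D-T3. Choroid plexus level and condition therefore cannot be fully told apart in that fit.

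**Figure D5:**
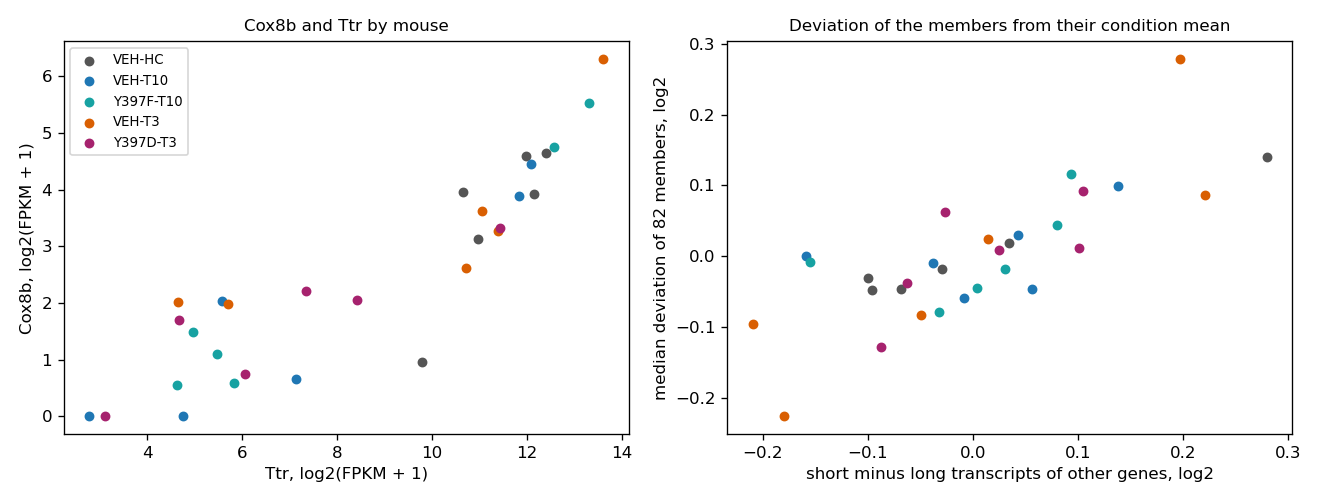
Left, log2(FPKM + 1) of Cox8b against Ttr in the 30 mice, coloured by condition; the 2 mice with the most Ttr have the most Cox8b, 78.2 and 45.5 FPKM. Right, the median deviation of the 82 genes from their condition mean against the median difference between 800 short and 4270 long transcripts of other genes, with VEH-T3 mouse 4 and VEH-HC mouse 4 at the upper right.

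The subunit genes also moved together within conditions. In VEH-T3 mouse 4, 82 of 82 tested genes lay above the mean of their condition, and in VEH-T3 mouse 2 only 1 did. VEH-HC mouse 4 had 79 above, and at the other end Y397F-T10 mouse 6 and Y397D-T3 mouse 5 had 7 each. Over all tested rows, 54.8% lay above the mean in VEH-T3 mouse 4, 47.5% in VEH-T3 mouse 2 and 50.5% in VEH-HC mouse 4. The transcripts of the 82 genes were short, with a median of 849.5 nt against 3038 nt over all tested symbols. In the same mice the difference between short transcripts (under 1000 nt) and long ones (over 4000 nt) of other genes, relative to the condition mean, was 0.20 in VEH-T3 mouse 4, -0.18 in VEH-T3 mouse 2 and 0.28 in VEH-HC mouse 4 (log2). The median deviation of the 82 genes was 0.28, -0.23 and 0.14 in these mice. The short-long difference and the median deviation were -0.03 and -0.08 in Y397F-T10 mouse 6 and -0.09 and -0.13 in Y397D-T3 mouse 5. Over the 30 libraries the Pearson r of the 2 values was 0.78. Not all mice followed it: the values were -0.16 and -0.00014 in VEH-T10 mouse 1 and 0.06 and -0.05 in VEH-T10 mouse 5. The part of transcript length in these values was not tested beyond the fit with its trend removed.

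Genes around the pathway were examined from lists. Of 6 further nuclear genes of the chain, 1 passed: Cycs, cytochrome c, was lower in Y397D-T3 (-0.20 ± 0.05, adjusted p = 0.021). Of 43 assembly factors tested, Cox10, which makes heme for complex IV, was lower in VEH-T10 (-0.23, adjusted p = 0.042), Ndufaf3 in VEH-T3 (-0.23, adjusted p = 0.045) and Ndufaf4 in Y397D-T3 (-0.22, adjusted p = 0.019), both assembly factors of complex I, and Sdhaf3, which helps to mature complex II, was higher in Y397D-T3 (0.72 ± 0.16, adjusted p = 0.0094). Of 12 citric acid cycle genes, Cs, citrate synthase, and Mdh2, malate dehydrogenase, were lower in VEH-T3 (-0.20 and -0.21, adjusted p = 0.0078 and 0.018) and in Y397D-T3 (-0.16 and -0.17, adjusted p = 0.012 and 0.040), so that 2 of 12 passed as lower in each, where 2.94% and 3.16% of all rows did. The median of the 12 against VEH-HC was -0.12 in VEH-T10 and in VEH-T3, -0.10 in Y397F-T10 and -0.15 in Y397D-T3, beside -0.03 to -0.04 over all rows. None of 12 regulators of mitochondrial biogenesis, among them Ppargc1a, Nrf1, Gabpa and Tfam, passed in any comparison. Of 77 mitochondrial ribosomal protein genes, 1 was higher and 2 lower in VEH-T3, and 1 was higher and 1 lower in Y397D-T3, and of 80 cytosolic ribosomal protein genes none passed. For all these lists, the shares over all tested rows were 2.23% higher and 2.94% lower in VEH-T3. They were 3.91% and 3.16% in Y397D-T3, and 0.319% and 0.501% in VEH-T10. With only the 12 libraries compared, 0 rows of the whole table passed in VEH-T3 against VEH-HC. The VEH-T3 calls in these lists, those of Cs, Mdh2 and Ndufaf3 among them, were therefore lost in that setting. Other settings are not given here for the genes of these lists.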

How the data were processed

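Per the labels, RNA came from 1 dorsal hippocampus sample per mouse, with a RIN of at least 7.0, and was sequenced as paired 150-base reads on NovaSeq and HiSeq instruments; which library ran on which is not given in the sources used here. Alignment by the authors used TopHat2 2.1.1 and mm10, Cufflinks 2.2.1 gave the FPKM values, and the deposited FPKM are normalized to length and depth, so no count test was run. Groups and replicate numbers were taken from the labels. Rows with a mean of at least 1 FPKM over 30 libraries were fitted as log2(FPKM + 1) with limma 3.58.1 (R 4.3.3), 1 coefficient per condition, empirical Bayes with trend, all two-sided, and the fit was tested on simulated data. The pseudocount understates changes of low genes. Lengths, GC content and coordinates came from GENCODE vM21, and copies were searched with blastn 2.17.0 (at least 95% identity over 50% of the transcript); 11 of 84 genes had one. Alternatives were a pseudocount of 0.1, no filter, median centring, 12 libraries only, a replicate block, summed rows, a length and GC trend, unadjusted p, leave-one-out, and, added after the data were seen, a choroid plexus covariate and the omission of 2 libraries. Genes were named by a rule: core subunits, isoform families, genes past the threshold, and the extremes by fold change and by level. A few genes of the rule and the lists are not reported here by name, and those of the lists were left out of the list counts. The members and lists were chosen with earlier results of these data known. Labels place the infusion 3 days before training. Nothing states separate litters or batches. Labelled numbers were checked for pairing: the deviations of 42 same-number pairs correlated from -0.50 to 0.52, 16 above 0.1, so the numbers were not treated as pairs.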

Additional observations from a re-analysis of the deposited data

Results flagged for a closer look

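In groups of 6 mice, a value was singled out where the highest or lowest mouse lay far from the nearest of the others by Dixon's criterion. Of 285 groups examined 25 met it, where chance gives about 1 in 20, and the genes of a library are not independent. VEH-HC mouse 4 was the highest of its group in 15 of the 25. Its summed FPKM was 5854 for complex I, 2198 for complex III, 6595 for complex IV and 21036 for all 84 genes. In complex IV it had 835 FPKM of Cox4i1, 266 of Cox5a, 540 of Cox5b, 1199 of Cox6a1, 541 of Cox6b1, 101 of Cox7b and 1168 of Cox8a. It also had 466 FPKM of Atp5g3, 293 of Atp5o, 143 of Sdha and 113 of Uqcrc2. VEH-T3 mouse 4 was the highest of its group with 687 FPKM of Atp5b, 171 of Atp5f1, 115 of Uqcrc2, 20.2 of Cox6b2 and 78.2 of Cox8b. VEH-T10 mouse 3 had the highest Atp5c1, 210 FPKM, and Y397F-T10 mouse 2 the highest Cox7a2, 152 FPKM. The lowest values so singled out were those of Cox7a2l in Y397F-T10 mouse 1 (113 FPKM), Ndufa4 in VEH-T10 mouse 5 (439 FPKM) and Uqcrb in VEH-T10 mouse 2 (142 FPKM).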

How the results depend on the processing

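The rises of Ndufa5 and Ndufa6 in Y397D-T3 passed under every alternative run, and the other calls did not. In VEH-T3 against VEH-HC, the 2 genes higher became 1 without the filter and with the length and GC trend removed, and 0 with only the 12 libraries compared or without VEH-HC mouse 4 and VEH-T3 mouse 4; the 2 lower became 1 with centring and without those 2 mice, 0 with 12 libraries and with the trend removed, and 17 at unadjusted p. In Y397D-T3 against VEH-HC, the 2 higher became 4 with centring and with 12 libraries, 5 with the trend removed and 9 at unadjusted p. They became 3 without the 2 mice. Cox6a1 was among the higher genes with centring, with 12 libraries, with the trend removed and without those mice. The 3 lower became 0 with centring and with the trend removed, 5 with 12 libraries and 14 at unadjusted p. With the choroid plexus covariate none of these 3 passed and 1 other gene, Atp5s, was lower, while Uqcrb joined the higher genes; Atp5d was also lost without the filter and without the 2 mice. The replicate block gave 5 lower there, adding Atp5o and Sdhc, and 3 lower in VEH-T3, adding Atp5a1; the replicate numbers do not pair the mice. Elsewhere unadjusted p gave 10 lower in VEH-T10 and 22 lower in Y397F-T10 against VEH-HC, 2 lower in Y397F-T10 against VEH-T10, 3 higher in Y397D-T3 against VEH-T3, and 2 higher and 3 lower in VEH-T10 against VEH-T3. The calls over all rows moved too. In VEH-T3 against VEH-HC, 294 higher and 387 lower rows became 0 and 0 with 12 libraries. Without the 2 mice they became 43 and 47. In Y397D-T3 against VEH-HC, 515 higher and 417 lower rows became 692 and 248 with centring. They became 685 and 1160 with 12 libraries, and 952 and 244 with the trend removed.

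With 1 library left out, the counts ran from 0 to 3 higher and 0 to 7 lower in VEH-T3, 0 to 5 lower in Y397D-T3 and 0 to 1 lower in Y397F-T10, all against VEH-HC. VEH-T3 had 0 higher without VEH-HC mouse 2, 3, 4 or 5 or VEH-T3 mouse 3, 4 or 6, and 1 without VEH-HC mouse 1 or 6 or VEH-T3 mouse 5. It had 7 lower without VEH-T3 mouse 4, 5 without VEH-T3 mouse 1, and 0 without VEH-HC mouse 4 or VEH-T3 mouse 2 or 3. Y397D-T3 had 0 lower without VEH-HC mouse 4 or 5 or Y397D-T3 mouse 2 or 5, 1 without VEH-HC mouse 3, and 5 without VEH-T3 mouse 4 or Y397D-T3 mouse 3. Y397F-T10 had 1 lower, Cox6a2, without Y397F-T10 mouse 1.

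With the choroid plexus covariate, the fold change of Cox8b turned to 0.027 in VEH-T10, 0.27 in Y397F-T10 and 0.22 in Y397D-T3 against VEH-HC, and that of Cox6b2 to 0.016 in VEH-T10 and 0.25 in Y397D-T3 against VEH-HC and 0.16 in Y397D-T3 against VEH-T3. With 1 library left out, Uqcr10 in Y397F-T10 against VEH-HC ran from -0.031 (without Y397F-T10 mouse 4) to 0.055. In Y397F-T10 against VEH-T10, Cox6b2 ran from -0.16 (without Y397F-T10 mouse 2) to 0.45 and was also below 0 without VEH-T10 mouse 5 (-0.047) or Y397F-T10 mouse 4 (-0.026), and Cox8b ran from -0.14 (without Y397F-T10 mouse 2) to 1.02. The causes were not tested. Of all rows called against VEH-HC, 38.9% in VEH-T10, 43.2% in VEH-T3, 41.6% in Y397F-T10 and 55.3% in Y397D-T3 were higher, against 71.7%, 70.1%, 71.4% and 73.6% with centring and 75.2%, 86.7%, 85.9% and 79.6% with the trend removed. Absolute depth is unknown, so no counting error is given for low genes such as Cox7b2.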
